A study of Mus musculus with 4 samples.

Results

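The mitochondrial enzymes that carry long-chain fatty acids through beta-oxidation were examined in normal mouse skeletal muscle. The set was chosen by name and holds 10 genes: Acsl1, Cpt1b, Cpt2, Acadvl, Acadl, Acadm, Hadha, Hadhb, Acaa2 and Etfdh. A gene counted as measured where the array's annotation gave it a probe set (a group of short probes read as 1 value) that belonged to no other gene, and 8 of the 10 did, out of 12393 genes in all. Cpt1b shares its probe set with 2 other annotated genes and Acsl1 had no probe set of its own in the annotation, so both were not analysed here. The samples were 4 bulk normal muscles from wild type mice of a mixed 129S4/SvJae and C57BL/6 background, each on 1 array. The labels place all of them in a single group, with no treatment, age or muscle named, and give them the titles skm4, skm5, nm7 and nm8. The meaning of the prefixes skm and nm is not given, and the difference between them, taken as skm minus nm, is the only split of the samples that the labels offer. The series sets these muscles beside rhabdomyosarcomas and pleomorphic sarcomas, which were not analysed here.

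Long-chain fatty acids enter the mitochondrion as carnitine esters. Acsl1 first joins them to coenzyme A, Cpt1b swaps coenzyme A for carnitine at the outer membrane, and Cpt2 restores the coenzyme A ester inside. Each turn of the beta-oxidation spiral then removes an acetyl unit through a dehydrogenase chosen by chain length (Acadvl, Acadl or Acadm), a hydratase and a second dehydrogenase, and a thiolase. For long chains these last steps belong to the mitochondrial trifunctional protein, built from Hadha and Hadhb, while Acaa2 is the thiolase for shorter chains. The first dehydrogenases pass their electrons through the electron transfer flavoprotein to Etfdh and on to ubiquinone. Skeletal muscle, and slow oxidative fibres above all, relies on this pathway at rest and in fasting.

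Hadha and Hadhb lie head to head on chromosome 5, and their promoter is shown because their values differed in direction between the prefixes. In GRCm38.p6, Hadha spans chr5:30119423-30154980 on the minus strand, and Hadhb runs from 30155253 to 30184593 on the plus strand, so 272 bases separate the annotated starts. The RefSeq promoter windows, 250 bases before to 50 after a start, share 228 bases, printed here in the Hadhb direction with the GC box GGGCGG in capitals.
Hadha and Hadhb, chr5:30155003-30155230, plus strand: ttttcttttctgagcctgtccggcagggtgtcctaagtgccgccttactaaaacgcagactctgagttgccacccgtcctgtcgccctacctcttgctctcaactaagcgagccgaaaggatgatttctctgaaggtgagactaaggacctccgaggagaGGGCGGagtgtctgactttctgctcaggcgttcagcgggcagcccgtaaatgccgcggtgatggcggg
One GC box lay wholly within the shared bases. Of the 7 measured genes with a window read here (Acaa2 was left out), 5 held a GC box on either strand, against 35.7% of 32851 windows of this length.

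The nuclear receptor half-site AGGTCA, which PPAR and ERR receptors can bind, was searched in the same windows because these receptors are known to drive the pathway. It stood in the windows of Acadm and Acadvl, 2 of 7, against 16.3% of all windows. The 250 bases before each of these starts are shown 5′ to 3′ on the minus strand, with the half-site in capitals in either direction.
Acadm, chr3:153944644-153944893: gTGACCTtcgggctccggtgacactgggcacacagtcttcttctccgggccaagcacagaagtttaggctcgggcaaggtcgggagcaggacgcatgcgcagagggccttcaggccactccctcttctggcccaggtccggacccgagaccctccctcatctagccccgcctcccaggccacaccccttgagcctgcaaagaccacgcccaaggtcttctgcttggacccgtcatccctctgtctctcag
Acadvl, chr11:70015429-70015678: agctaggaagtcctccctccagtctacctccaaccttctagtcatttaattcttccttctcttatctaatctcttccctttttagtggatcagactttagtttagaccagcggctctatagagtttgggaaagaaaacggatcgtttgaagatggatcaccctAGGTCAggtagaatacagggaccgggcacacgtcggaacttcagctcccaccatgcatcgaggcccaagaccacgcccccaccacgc
The direct repeat of half-sites with 1 base between them, and the extended half-site TCAAGGTCA, occurred in 0 of the 7 windows, and in 0.0396% and 0.423% of all windows. Both contain the shorter half-site, so their matches overlap its own. All motifs were searched on both strands, and a match of letters in a short window does not show binding.

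All 8 measured genes were bright in every muscle. Their values, on the log2 expression scale on which 1 unit is a 2-fold step, ran from 11.21 to 13.19, against array medians of 7.26 to 7.30 and readings of 3.40 to 4.05 for the bacterial control TrpnX, which muscle does not hold. The SD over the 4 samples was 0.04 to 0.22, with a median of 0.11, against 0.19 for all genes and 0.12 for the 784 genes with a mean between those of the lowest and highest of the 8. The SD of 7 of the 8 was below the median of all genes, and the widest range, that of Hadha, was 0.47, or 1.38-fold. The spread of the 8 was thus close to that of other genes in this range of values. The labelled tissue was checked by 8 skeletal muscle markers, which were all measured and read 8.19 or more, among them Ryr1, the calcium release channel, at 13.40 to 13.53. Of these 8, 0 passed the limma test between the prefixes described below, and 5 did not overlap, against 54.4% of all genes. Myod1, a transcription factor of muscle precursors, read 9.62 and 9.62 in skm4 and skm5 against 8.56 and 8.19 in nm7 and nm8. Its difference was 1.24 ± 0.16 (limma, adjusted p = 0.051, and 0.0079 with an intensity trend in the spread). Myog, its partner in differentiation, stood at 0.73 ± 0.22 (limma, adjusted p = 0.13, and 0.053 with the trend).

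**Figure D1:**
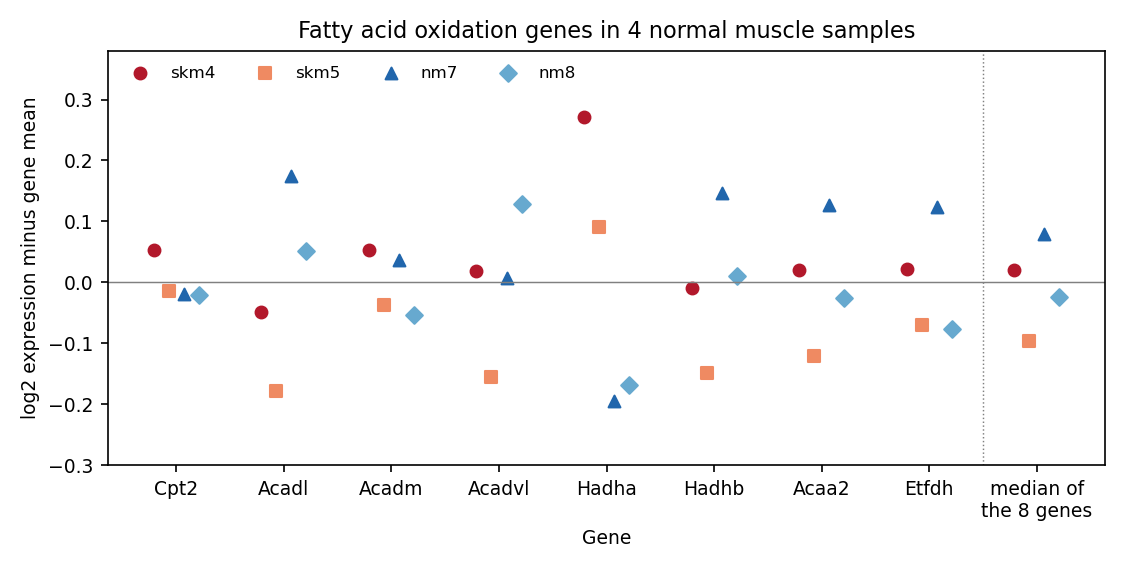
The log2 expression of each of the 8 genes in each sample (points), minus the gene's mean over the 4 samples; the last column is the median over the genes. Hadha and, by a narrow gap, Cpt2 have both skm samples above both nm samples, and Acadl and Hadhb have them below. In every gene skm5 is below skm4.

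The difference between the prefixes passed the test in 0 of the 8 genes. Each gene was tested with limma, 2 arrays against 2, and called where its p, adjusted by Benjamini-Hochberg for all 12393 genes, was under 0.05. By that rule 0.0323% of all genes were called, 0.0242% higher and 0.00807% lower in skm. At an unadjusted p under 0.05 the count was 1 of 8, against 23.5% of all genes and 17.2% of the 784 genes in the same range of values. Taking the mean of a gene's probe sets also gave 0 of 8, where 0.742% of all genes passed. Leaving out probe sets with the Affymetrix suffix s, x or a also gave 0 of 8, where 0.741% of the genes still tested passed. The suffix a is for transcripts of the same gene. Samples of the prefixes did not overlap in 4 of the 8 genes, 2 higher and 2 lower in skm, against 54.4% of all genes, with 25.8% higher and 28.6% lower. The median difference of the 8 was -0.07, beside -0.00 for all genes, and without nm7 it was 0.01. With array medians subtracted, with the mean of probe sets, or without the suffixed probe sets, the median of the 8 was -0.02. With quantile normalization it was -0.09. Whether each muscle was taken from its own animal is not stated, so a p-value here reflects the spread among 4 arrays and that spread may be technical.

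Entry through Cpt2 did not separate the muscles. Cpt2, the inner carnitine palmitoyltransferase, read 11.29 and 11.22 in skm4 and skm5, against 11.21 and 11.21 in nm7 and nm8. The skm samples sat just above the nm samples, by less than 0.1 in any pair. The skm minus nm difference was 0.04 ± 0.12 (SE, n = 2 per prefix), a 1.03-fold ratio with a 95% interval of 0.840 to 1.26 (limma, adjusted p = 0.87).

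Of the 3 acyl-CoA dehydrogenases in the set, the long-chain enzyme Acadl had the largest difference, although Acad10, an acyl-CoA dehydrogenase outside it, stood at 0.36 ± 0.14. Acadl read 12.75 and 12.61 in skm4 and skm5, against 12.97 and 12.85 in nm7 and nm8. Both skm samples lay below both nm samples, at a difference of -0.23 ± 0.13 with a 95% interval of -0.54 to 0.09 (limma, adjusted p = 0.34). Acadvl, the very-long-chain enzyme of the inner membrane, read 12.20 and 12.02 in skm4 and skm5 and 12.18 and 12.31 in nm7 and nm8. Its samples overlapped, with skm5 lowest and nm8 highest, at -0.14 ± 0.13 (limma, adjusted p = 0.59). Acadm, the medium-chain enzyme whose deficiency is a common inborn error of fat oxidation in people, read 13.19 and 13.10 in skm4 and skm5 against 13.17 and 13.08 in nm7 and nm8. Each prefix held 1 higher and 1 lower sample, so the prefixes coincided, and the difference of 0.02 ± 0.12 had a 95% interval of 0.821-fold to 1.25-fold (limma, adjusted p = 0.95).

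The subunits of the trifunctional protein went in opposite directions. Hadha, the alpha subunit with the hydratase and dehydrogenase activities, read 11.88 and 11.70 in skm4 and skm5, against 11.42 and 11.44 in nm7 and nm8. Both skm samples were higher, and the difference of 0.36 ± 0.13, or 1.29-fold, was the largest of the 8 genes. Its 95% interval was 0.04 to 0.68 before adjustment, with an unadjusted p = 0.032 and an adjusted p = 0.17 by limma, so it did not pass. Hadhb, the beta subunit with the thiolase activity, read 12.96 and 12.82 in skm4 and skm5, against 13.12 and 12.98 in nm7 and nm8. Both skm samples were lower, though skm4 and nm8 differed only in the second decimal, and the difference was -0.16 ± 0.13 (limma, adjusted p = 0.52). Within a sample, the log2 value of Hadha minus that of Hadhb was -1.08 and -1.12 in skm4 and skm5, against -1.70 and -1.54 in nm7 and nm8. This within-sample quantity was higher in both skm samples, by 0.52. An exact permutation test over the samples (two-sided) gave p = 0.333, the smallest that 2 samples against 2 can give, and the pair was singled out after its values were seen. A second Hadhb probe set read 11.33 and 11.62 in skm4 and skm5 against 11.73 and 11.28 in nm7 and nm8, a difference of -0.03 ± 0.20, so the size of the Hadhb difference rested on the probe set.

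The thiolase Acaa2 had no single direction, since its probe sets disagreed. The brightest, which stands for the gene, read 12.37 and 12.23 in skm4 and skm5 against 12.48 and 12.32 in nm7 and nm8, with overlap and a difference of -0.10 ± 0.13 (limma, adjusted p = 0.69). The next read 11.67 and 11.58 in skm4 and skm5 against 11.47 and 11.38 in nm7 and nm8, a difference of 0.20 ± 0.13 with no overlap. The dimmest read 10.78 and 10.69 in skm4 and skm5, against 9.998 and 9.86 in nm7 and nm8. On it both skm samples were higher by 0.81 ± 0.13, or 1.75-fold, with an adjusted p = 0.053 over all 20380 probe sets of 1 gene (limma, 1.6% of them called). The identifier of the brightest probe set carries the suffix that Affymetrix gives to probes shared by several transcripts, and that of the dimmest a suffix for transcripts of the same gene.

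Etfdh, the flavoprotein that hands electrons to ubiquinone, read 11.69 and 11.60 in skm4 and skm5, against 11.79 and 11.59 in nm7 and nm8. Both nm samples enclosed the skm samples, at a difference of -0.05 ± 0.13 (limma, adjusted p = 0.87). In its partner, the electron transfer flavoprotein, Etfa differed by -0.08 ± 0.12 and Etfb by -0.04 ± 0.12, both named after their values were seen. Over the brightest probe sets of the 8 genes, the 95% intervals reached 1.60-fold higher in skm, for Hadha, and 1.46-fold higher in nm, for Acadl. The interval of the dimmest Acaa2 probe set reached further, from 1.39-fold to 2.19-fold higher in skm.

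**Figure D2:**
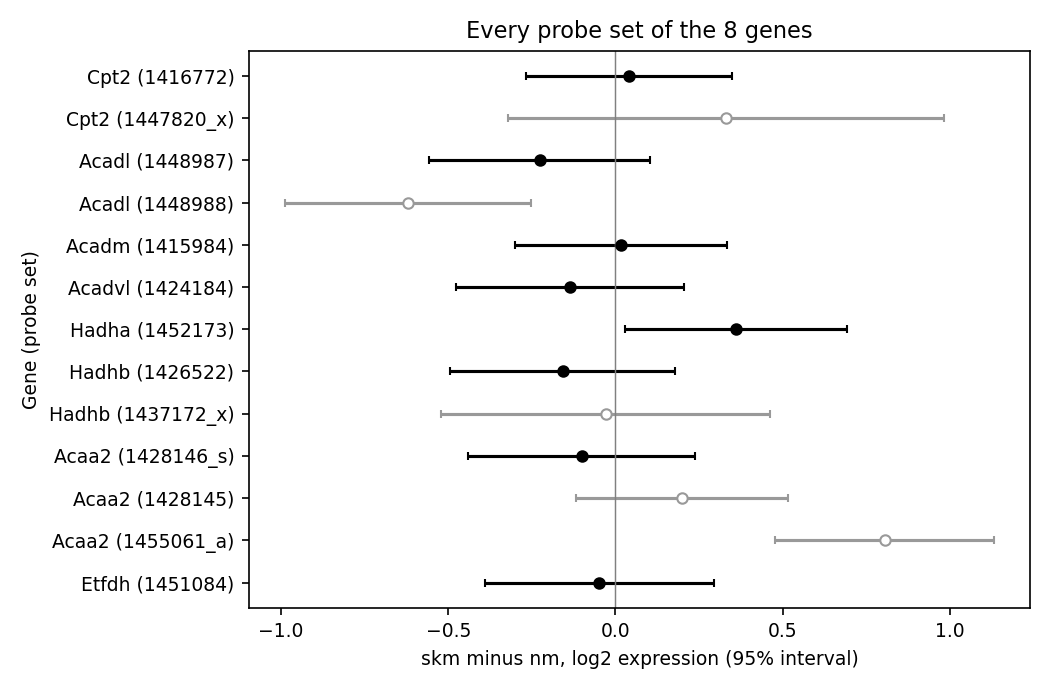
The skm minus nm difference in log2 expression for all 13 probe sets of the 8 genes, with 95% intervals from limma fitted over probe sets (n = 2 per prefix); filled points are the brightest probe set of a gene and open points the others. The probe sets of Acaa2 run from -0.10 to 0.81, and the second set of Acadl at -0.62 is dim.

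Of the 8 genes, 4 had more than 1 probe set. Besides those of Hadhb and Acaa2, the second probe set of Acadl differed by -0.62 ± 0.15, with a 95% interval of -0.99 to -0.25, and that of Cpt2 by 0.33 ± 0.27. The first read only 4.46 to 5.25, not far above the bacterial control, and the second 5.68 to 6.55, below the array medians.

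Within each prefix most of the genes had the same order of samples. The value in skm4 was above that in skm5 in 8 of 8 genes, by 0.07 to 0.18 with a median of 0.14, against 53.2% of all genes. The value in nm7 was above that in nm8 in 6 of 8, with a median difference of 0.11, against 45.7% of all genes, and Acadvl and Hadha were the exceptions. Both held in 6 of 8 genes, against 21.5% of all genes and 17.1% of the 784 genes. This pattern was seen first and counted afterwards, and genes of 1 sample are not independent, so it is a description of these arrays.

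Slow muscle fibre genes had the same order of samples with larger steps. Of 9 measured slow fibre genes, 8 were higher both in skm4 than in skm5 and in nm7 than in nm8, with median steps of 0.81 and 0.52. Myh7, the slow myosin heavy chain, read 12.83 and 11.64 in skm4 and skm5, against 12.92 and 12.46 in nm7 and nm8. Casq2, the calsequestrin of slow and cardiac muscle, was the exception, at 10.04 and 9.96 in skm4 and skm5 against 10.54 and 10.80 in nm7 and nm8. The log2 of the summed level of the slow list was 14.95 to 15.80 in skm and 15.22 to 15.72 in nm, and every marker was far above the bacterial control, at 9.96 or more. Fast fibre genes met both conditions in 3 of 10, with median steps of 0.01 and 0.02, among them Myh2, the myosin of oxidative type IIa fibres, at 13.01 and 12.43 in skm4 and skm5 against 13.12 and 12.79 in nm7 and nm8. Besides Myh2, the fast fibre genes read 14.02 or more, near the highest reading on the arrays, 14.76. RMA can compress differences at that end, and whether it did so here was not tested. In bulk muscle, fewer fibres of a type and less RNA per fibre cannot be told apart, and the part of fibre type in the order of the fatty acid oxidation genes was not tested.

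**Figure D3:**
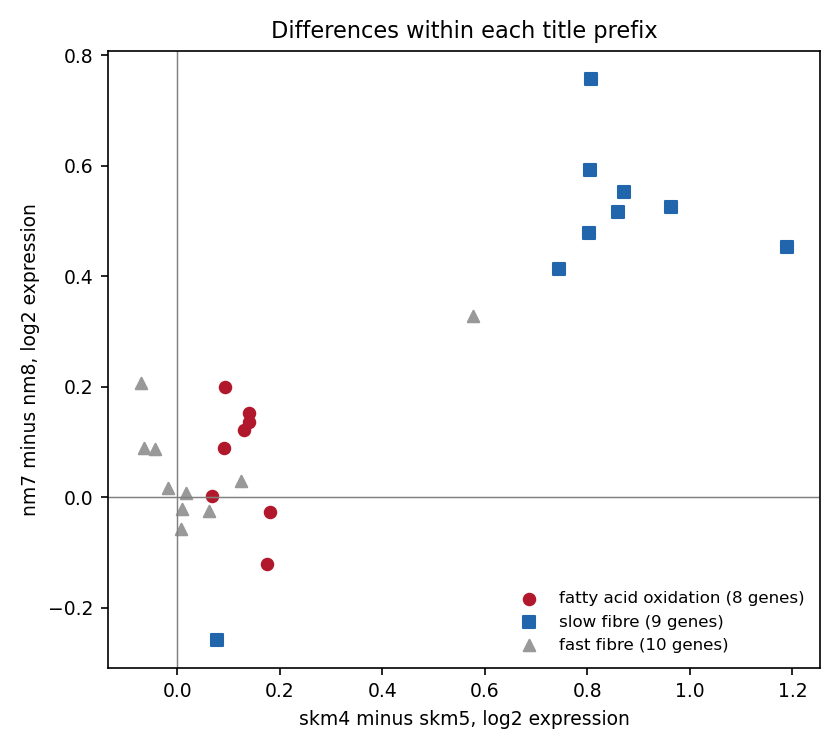
Each point is a gene, with skm4 minus skm5 on the horizontal axis and nm7 minus nm8 on the vertical axis, both in log2 expression. The 8 fatty acid oxidation genes lie right of 0, 6 of them also above it, while 8 of 9 slow fibre genes lie further out on the same side of both axes and most of the 10 fast fibre genes lie near 0. Fast fibre genes other than Myh2 read near the top of the scale, where differences can be compressed.

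Lymphocyte and adipocyte markers had larger median differences between the prefixes than the 8 genes, and 0 of them passed the test (limma). With an intensity trend in the spread 7 of 8 lymphocyte and 3 of 8 adipocyte markers did, against 8.96% of all genes. All 8 measured lymphocyte markers were lower in skm without overlap, against 28.6% of all genes, with a median difference of -1.67 and a log2 summed level of 9.28 to 10.40 in skm against 11.46 to 11.63 in nm. Of 8 adipocyte markers, 3 were lower and 1 higher without overlap, against 28.6% and 25.8% of all genes, with a median of -0.38 and a log2 summed level of 13.74 to 14.16 in skm against 14.45 to 14.67 in nm. Lep, which encodes leptin, read 6.80 and 7.505 in skm4 and skm5 against 9.28 and 9.55 in nm7 and nm8. Markers of brown fat, a tissue rich in these enzymes, were read as well. Ucp1, its uncoupling protein, read 11.14 and 11.29 in skm4 and skm5 and 10.80 and 11.24 in nm7 and nm8, and Cidea, a lipid droplet protein, read 11.84 and 11.60 in skm4 and skm5 against 12.51 and 12.38 in nm7 and nm8. The log2 summed level of 5 brown fat markers was 14.75 to 14.84 in skm and 14.79 to 14.804 in nm, with the largest readings from Cox7a1 and Cox8b, respiratory subunits that muscle also expresses, while Elovl3, a fatty acid elongase, read below the array medians, at 5.67 and 6.40 in skm4 and skm5 and 5.63 and 5.93 in nm7 and nm8. Keratinocyte markers stood at a log2 summed level of 11.07 in skm5 and 9.43 in skm4, against 9.41 to 9.63 in nm. Among the fatty acid oxidation genes, Acadl, Acadvl, Hadhb and Acaa2 were lowest in skm5, Cpt2, Acadm and Etfdh in nm8, and Hadha in nm7. Of 7 measured keratinocyte markers, Trp63 was highest in nm7 instead, and Krt10, a keratin, read 8.45 and 9.79 in skm4 and skm5 and 8.53 and 8.69 in nm7 and nm8. Liver markers were dim, at 4.35 to 6.97 in the 4 of 5 that were measured. Endothelial markers went both ways, with Pecam1 at 1.31 ± 0.16, Ramp2 at 0.99 ± 0.12 and Kdr at -0.58 ± 0.12. Of these markers 3 of 7 passed with the trend, against 8.96% of all genes, and 0 without it (limma). The log2 summed level of 3 Schwann cell markers was 12.18 in skm4 and 13.17 in skm5, against 12.65 to 12.76 in nm. The part of these cells in the values of the 8 genes was not tested.

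The nearby steps of fat oxidation were described from 12 further lists holding 115 measured genes. Over all of them 0 passed the test (limma, 0.0323% of all genes called), while 34, or 29.6%, had an unadjusted p under 0.05, 19 higher and 15 lower, against 23.5% of all genes. With an intensity trend in the spread 24 of the 115 passed, and with dim genes left out 24 of the 98.0 still tested, where 8.96% of all genes and 16.6% of the brighter genes passed; of the 8 fatty acid oxidation genes, 0 passed in either. Hadha came closest, at an adjusted p = 0.052 with the trend and 0.068 among brighter genes.

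Short-chain and auxiliary enzymes had a median difference of -0.04 and a median SD of 0.09 over 14 genes. Decr1, which reduces the double bonds of unsaturated chains, read 11.56 and 11.60 in skm4 and skm5 against 12.05 and 11.94 in nm7 and nm8, and Echs1, the short-chain hydratase, read 11.81 and 11.79 in skm4 and skm5 against 11.33 and 11.48 in nm7 and nm8. These had no overlap and opposite signs, at -0.41 ± 0.12 and 0.39 ± 0.12 (limma, adjusted p = 0.13 and 0.14). Eci1, an isomerase for unsaturated chains, stood at -0.18 ± 0.12.

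Uptake and carnitine genes had a median difference of 0.05 over 10 genes, with no overlap in 4 higher and 3 lower, against 54.4% of all genes. Got2, the mitochondrial aspartate aminotransferase, which has also been described as a fatty acid binding protein of the plasma membrane, read 13.01 and 12.92 in skm4 and skm5 against 12.26 and 12.28 in nm7 and nm8. Its difference of 0.70 ± 0.12 had an adjusted p = 0.063 by limma. Slc27a1, a fatty acid transporter, stood at 0.52 ± 0.13 and Crat, which buffers acetyl groups as carnitine esters, at 0.51 ± 0.12, while Slc25a20, the carnitine carrier of the inner membrane, stood at -0.32 ± 0.14. The carrier and Cpt2, consecutive in the pathway, therefore had estimates of opposite sign, neither past the test.

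Other isoforms of the entry enzymes had a median difference of -0.01 over 7 measured genes. Cpt1a, the liver form of the outer transferase, read 7.75 and 7.45 in skm4 and skm5 against 7.47 and 7.11 in nm7 and nm8, with overlap and a difference of 0.31 ± 0.18 (limma, adjusted p = 0.36). Acsl5, another acyl-CoA synthetase, read 8.42 and 8.80 in skm4 and skm5 against 9.30 and 9.30 in nm7 and nm8, at -0.69 ± 0.16 (limma, adjusted p = 0.093). Both skm samples of Acsl5 were lower. Of 7 thioesterases, which release free fatty acids from coenzyme A, Acot1 stood at 0.40 ± 0.15 and Them4 at -0.38 ± 0.12, with a list median of 0.04. Acot1 was dim, read at 5.82 to 6.43, below the array medians.

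Malonyl-CoA, made by acetyl-CoA carboxylase and removed by Mlycd, blocks the outer transferase, and AMPK restrains the carboxylase. The 6 measured genes of this control had a median difference of -0.34, and 6 of 6 did not overlap between the prefixes, 2 higher and 4 lower, against 54.4% of all genes. Mlycd read 10.55 and 10.07 in skm4 and skm5 against 9.96 and 9.84 in nm7 and nm8, at 0.41 ± 0.19. The AMPK subunits Prkag2 and Prkab1 stood at -0.43 ± 0.12 and -0.42 ± 0.13, while Prkag1 stood at 0.15 ± 0.13. Prkaa1, Prkaa2, Prkab2 and Prkag3 were not analysed. Acaca, the carboxylase of fat-making tissue, stood at -0.56 ± 0.13 with readings of 4.18 to 4.88, near the bacterial control. Acacb, the other carboxylase of the list, read 10.67 and 10.53 in skm4 and skm5 against 10.83 and 10.90 in nm7 and nm8, at -0.27 ± 0.12. The lowest adjusted p of the list was 0.093 (limma).

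Transcriptional regulators of the pathway had a median difference of -0.12 over 15 genes, and 10 of them did not overlap between the prefixes, against 54.4% of all genes. Ppara, the fasting receptor that induces fat oxidation, read 8.09 and 8.18 in skm4 and skm5 and 8.12 and 8.43 in nm7 and nm8, at -0.14 ± 0.15. Ppard, the related receptor of muscle, stood at 0.17 ± 0.22 and the coactivator Ppargc1a at -0.13 ± 0.12, with overlap for Ppard and, by a narrow gap, none for Ppargc1a. Larger values belonged to Med1, a subunit of the Mediator complex that binds nuclear receptors, at 8.73 and 8.82 in skm4 and skm5 against 9.76 and 9.83 in nm7 and nm8. Its difference was -1.02 ± 0.12, or 2.03-fold lower (limma, adjusted p = 0.051). Rxra, the partner of PPAR receptors, stood at 0.86 ± 0.13, the coactivator Ncoa1 at -0.63 ± 0.13, and Pparg, the receptor of adipocytes, at -0.94 ± 0.19. The median SD of the 15 regulators was 0.23, beside 0.11 for the 8 enzymes. The regulators were mostly dimmer, with gene means of 4.43 to 11.68 against 11.23 to 13.14. The part of level in the 2 SDs was not tested.

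**Figure D4:**
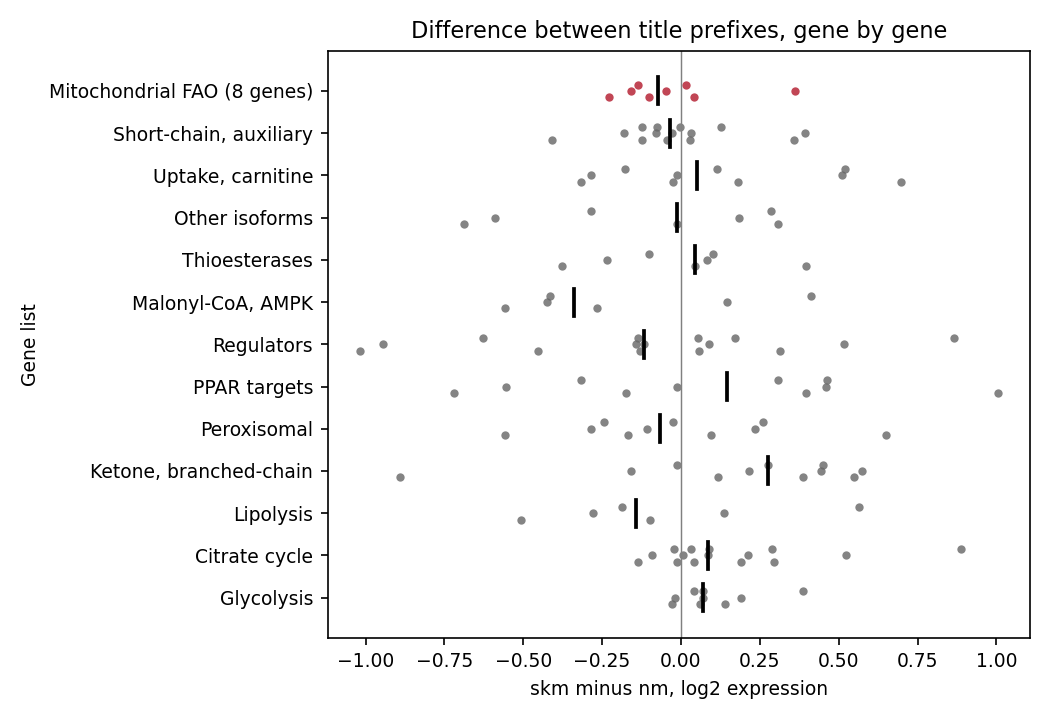
The skm minus nm difference in log2 expression of each measured gene (points) in the 8 fatty acid oxidation genes (FAO, red) and 12 related lists, with a bar at each list's median. The 8 genes lie between -0.23 and 0.36, while regulators run from -1.02 to 0.86 and PPAR targets from -0.72 to 1.004.

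Known PPAR targets had no shared direction. Of 10 measured, 4 were higher and 3 lower in skm without overlap, against 25.8% and 28.6% of all genes, and their median SD was 0.30. Plin5, a lipid droplet protein that couples stores to mitochondria, read 9.46 and 9.09 in skm4 and skm5 against 8.40 and 8.14 in nm7 and nm8, 2.01-fold higher (1.004 ± 0.18, limma, adjusted p = 0.064). Plin2, another droplet coat protein, read 10.42 and 10.42 in skm4 and skm5 against 11.10 and 11.18 in nm7 and nm8, at -0.72 ± 0.12 (limma, adjusted p = 0.061). Angptl4, an inhibitor of lipoprotein lipase, stood at -0.55 ± 0.15 and Pdk2, a kinase that shuts off pyruvate dehydrogenase, at 0.46 ± 0.13. Pdk4, the fasting kinase of the same enzyme, read 12.04 and 11.75 in skm4 and skm5 and 12.60 and 11.54 in nm7 and nm8, so nm7 and nm8 differed more than the prefixes (-0.17 ± 0.35). Ucp3, a mitochondrial carrier of muscle, read 8.92 and 8.54 in skm4 and skm5 against 8.39 and 8.15 in nm7 and nm8, at 0.46 ± 0.18.

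Peroxisomal oxidation, which shortens very long chains, had a median of -0.07 over 10 genes. Ehhadh, its bifunctional enzyme, stood at -0.56 ± 0.13, and Acox3, an oxidase read at 5.003 to 6.03, at 0.65 ± 0.23. Ketone and branched-chain genes had a median of 0.28 over 11, with Pcca, a subunit of propionyl-CoA carboxylase, at 0.57 ± 0.12, Bckdhb, of the branched-chain dehydrogenase, at 0.55 ± 0.15, and Bdh1, which oxidises ketone bodies, at -0.89 ± 0.28. Bdh1 was dim, read at 4.90 to 6.38, below the array medians. In triglyceride breakdown, Plin4, a droplet coat protein, stood at 0.57 ± 0.12 and G0s2, an inhibitor of the lipase Pnpla2, at -0.51 ± 0.14.

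The citrate cycle, which burns the acetyl units, was described from 15 genes. They had a median difference of 0.09 and a median SD of 0.08. Of the 15, 11 had positive differences, against 3 of the 8 fatty acid oxidation genes and 6135 of all 12393 genes. Ogdh, of the oxoglutarate dehydrogenase complex, read 12.51 and 12.47 in skm4 and skm5 against 11.63 and 11.57 in nm7 and nm8, at 0.89 ± 0.12 (limma, adjusted p = 0.051), and Sdhc, a subunit of succinate dehydrogenase, stood at 0.52 ± 0.11. The within-prefix order of the fatty acid oxidation genes was met by 3 of 15 citrate cycle genes, against 21.5% of all genes. Short-chain and auxiliary enzymes met it in 7 of 14, PPAR targets in 5 of 10, and ketone and branched-chain genes in 5 of 11. Counts were 3 of 7 thioesterases, 3 of 9 glycolysis, 3 of 10 uptake, 3 of 10 peroxisomal and 2 of 7 isoform genes. They were 3 of 15 regulators, 1 of 6 malonyl-CoA and 0 of 6 triglyceride breakdown genes. Among markers, tendon had 4 of 6 and skeletal muscle 4 of 8, while lymphocyte and adipocyte had 0 of 8. Glycolysis, the competing fuel path, had a median of 0.07 over 9 genes, with Pgam2, the muscle phosphoglycerate mutase, at 0.39 ± 0.12. No difference between these lists was tested.

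The genes whose values most resembled the set's median profile were Klhl26, Npepps, Upf1, Rangap1 and Adprm. Likeness was the Euclidean distance between centred log2 values over the 4 samples, taken among genes with a mean no lower than the median gene's that varied at least as much as the profile, and it was 0.02 to 0.04. That profile was 0.02 in skm4, -0.10 in skm5, 0.08 in nm7 and -0.02 in nm8, with an SD of 0.07, so the likeness rests on small steps in 4 samples. Npepps, a cytosolic aminopeptidase, read 10.87 and 10.73 in skm4 and skm5 against 10.93 and 10.80 in nm7 and nm8.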

How the data were processed

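Bulk normal muscle of 4 samples was measured on 1-colour Affymetrix arrays. The deposited log2 value of a probe set comes from the authors' RMA run; Affymetrix Expression Console 1.1 is the program named, per the submitters' processing notes. RMA can compress differences near the background and at the brightest end. Which arrays were normalized together is not stated. Per the labels' protocols, RNA came from either of 2 extraction routes, with no route named per sample.

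Of 22690 probe sets, 20380 named 1 gene, 691 several and 1555 none, beside 64 controls. Symbols were updated through Entrez identifiers (GRCm38.p6 gene table), and 29 kept the older one. The probe set with the highest mean stood for a gene. No filter was applied. skm minus nm was fitted with limma 3.58.1 in R 4.3.3 (lmFit, eBayes, 2 residual and 3.51 prior degrees of freedom, Benjamini-Hochberg) and tested on simulated data. The number of arrays limits the precision. Named genes were the 8 measured genes, up to 4 per list by size of difference, the 5 most alike, and Cpt1a, Ppara, Ppard, Ppargc1a, Pdk4 and Ucp3. Others, such as Acacb and Prkag1, were named besides these. Of the named lists, fast fibre, macrophage, endothelial, tendon and Schwann cell markers had median differences of -0.01, -0.21, 0.06, 0.39 and -0.12. The genes and lists were chosen with earlier results of these data known. Sequences are from RefSeq. Alternatives were quantile normalization, median centring, a filter on dim genes, other probe set choices, an intensity trend, and each sample left out.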

Additional observations from a re-analysis of the deposited data

Results flagged for a closer look

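Chance marks about 1 group in 20, and 3 of 107 genes looked at had a sample far from the other 3. Cpt2 stood out in skm4 at 11.29, with 11.22 in skm5 and 11.21 in both nm7 and nm8, although the whole range was 0.07. Dsp, a desmosome gene of skin, stood out in skm5 at 8.33, with 4.32 in skm4, 4.12 in nm7 and 4.48 in nm8. Comp, a tendon and cartilage matrix protein, stood out in nm8 at 7.51, with 8.64 in skm4, 8.57 in skm5 and 8.48 in nm7.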

How the results depend on the processing

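Of 80 differences of single fatty acid oxidation genes under the alternatives, 73 kept their sign. Many of these could not change. The intensity trend and the filter on dim genes leave a difference as it is. So do the probe set choices for the 4 genes with 1 probe set. The 73 therefore overstates how stable the signs were. With all 4 samples kept, 0 of the 8 genes passed the test under any alternative. Acaa2 turned to 0.30 with its probe sets averaged and to 0.20 without probe sets with the suffix s, x or a. Acadm turned to -0.0082 with quantile normalization, and Etfdh to 0.0106 with array medians subtracted. With each sample left out in turn, Acadm ran from -0.0286 (without skm4; also below 0 without nm8) to 0.062 (without skm5), Etfdh from -0.1475 to 0.052 (without nm7), and the median difference of the 8 genes from -0.1326 to 0.0079 (without nm7). Without skm5 Acadvl was -0.05, Hadhb -0.09 and Acaa2 -0.03, without skm4 Acadvl was -0.22 and Cpt2 0.0058, and without nm7 Hadhb was -0.09 and Acaa2 -0.02. Acadl was -0.42 with the mean of probe sets. The number of all genes called, 4, became 22 with quantile normalization, 1026 with dim genes left out, 92 with the mean of probe sets, 78 without cross-hybridizing probe sets, 1110 with the intensity trend, 326 of probe sets, and 0 to 15 with a sample left out (0 without nm7, nm8 or skm4, 15 without skm5). Of the 115 genes of the other lists, 24 of the 98 tested with dim genes left out passed, and 24 passed with the trend. With the mean of probe sets 1 passed, and without probe sets with the suffix s, x or a 1 passed. Of their probe sets 3 passed, and the cause was not tested. A lone sample of a prefix was assumed to vary like the pair. With the mean of probe sets the SD of Cpt2 became 0.19, of Acaa2 0.187 and of Acadl 0.249, and without skm4 that of Cpt2 became 0.0035. No paired analysis was possible because the labels pair no samples. With 2 arrays per prefix, the 95% intervals allow folds of up to 1.60 for the brightest probe sets and 2.19 for a dimmer one of Acaa2.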
